A study of Mus musculus with 6 samples.

Results

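Genes for intestinal uptake of vitamin B12, folate and calcium were followed in 6 RNA libraries of mouse intestine. The set has 10 members, chosen by name from the 20312 rows of the deposited table, and all 10 were present. They are Cubn, Amn, Tcn2 and Cd320 for B12, Slc46a1 and Slc19a1 for folate, and Vdr, Trpv6, S100g and Atp2b1 for calcium. The control group held 3 libraries from Apc min/+ mice, which carry a truncating allele of the Wnt pathway inhibitor Apc and develop intestinal adenomas. The knockout group held 3 libraries from mice of the same Apc genotype that were also Sirt7 -/-, lacking a nuclear deacylase of the sirtuin family. All mice were 5 months old and the strain was given as 129, so both groups share the Apc allele, the age and the strain label. The labels name intestine as the tissue, without the segment, the sex of the mice or whether tumour was included, and they tie no library to an animal. Each p-value is thus set against the spread of these libraries, part or all of which could be technical.

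Vitamin B12 is taken up in the ileum as a complex with intrinsic factor, by the receptor pair of cubilin and amnionless. It then leaves the cell bound to transcobalamin, which other cells take in through the receptor CD320. Folate enters proximal enterocytes mainly through the proton-coupled carrier SLC46A1. Calcium is absorbed through the cell in the duodenum, where the vitamin D receptor induces the apical channel TRPV6, the cytosolic carrier calbindin-D9k (S100g) and the basolateral pump PMCA1 (Atp2b1).

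In the knockout libraries the B12 receptor genes Cubn and Amn were at 28.1% and 43.4% of their control means, while the calcium carrier S100g stood 6.84-fold higher. The folate carriers Slc46a1 and Slc19a1, transcobalamin and the vitamin D receptor were lower by smaller amounts. The channel Trpv6, nearly undetected in control, and the receptor Cd320 were higher, and the pump Atp2b1 was 1.18-fold higher. Values are signal, the authors' reads per gene after division by each library's size factor, and group values are the mean ± SD of 3 libraries. A fold change is given with its SE as knockout over control on the log2(signal + 1) scale, which understates changes of low genes. They were tested with limma over 16600 genes, and a gene passed at a Benjamini-Hochberg adjusted p under 0.05.

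All 10 members reached a signal of 10 in at least 3 libraries, the condition for testing. Trpv6 did so through the knockout libraries alone, so it had to differ. Of the other 9, 3 passed as higher and 6 as lower, although relative to absorptive enterocyte markers 4 of the 6 were not lower, and Atp2b1 was level when libraries were scaled to general epithelial genes. Over all tested genes 31.6% passed as higher and 30.9% as lower, so that passing is common in this comparison. The groups did not overlap for any of these 9, nor for Trpv6, against overlap-free groups in 66.5% of all tested genes. Relative to the enterocyte markers 79.9% of all tested genes passed as higher and 5.3% as lower, and with scaling to general epithelial genes 19.7% and 46.5%. By size of change, 1.64% of tested genes had a higher log2 fold change than Trpv6 and 2.30% a higher one than S100g, while 2.27% had a lower one than Cubn. An exact permutation test of 3 against 3 libraries, two-sided, gave p = 0.1 for each member, the smallest value this design allows.

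**Figure D1:**
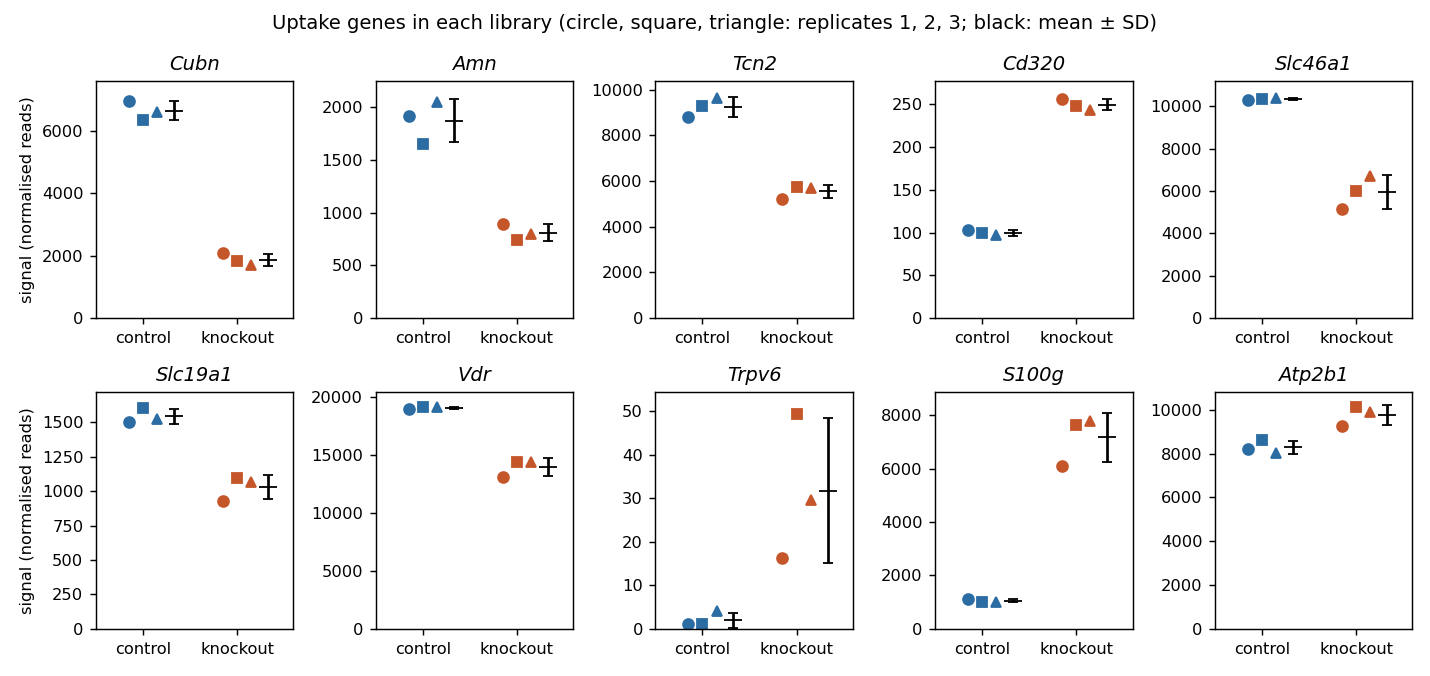
Signal (normalised reads, linear axis from 0) of each of the 10 genes in each library, with circles, squares and triangles for replicates 1, 2 and 3 and black bars for the mean ± SD. In each panel the 3 control and 3 knockout libraries do not overlap, with S100g and Trpv6 well above control and Cubn and Amn well below it.

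Library depth lay between 24987313 and 29603348 recovered reads. Sirt7 fell to 10.5% of its control level (log2 fold change -3.25 ± 0.07, limma adjusted p = 2.96e-20). The tissue label was checked against 22 absorptive enterocyte markers, all of which were detected. Of these, 21 were lower and 1, Mep1a, was higher in knockout, with a summed signal of 2364016 to 2391687 in control and 1200344 to 1222678 in knockout. In bulk tissue, fewer cells of a type and less RNA per cell cannot be told apart. Each member was therefore also measured relative to the mean log2 level of this enterocyte list, a scale on which the median of all tested genes is 0.82. That scale was chosen after seeing the data. The 22 markers themselves changed by -1.51 (Apoa4) to 0.58 (Mep1a) on the log2 scale. Intervals on the enterocyte scale cover the spread between libraries and leave out this spread among markers. The epithelial genes Epcam, Cdh1, Krt8, Krt18, Krt19, Cldn7 and Cldn3 went both ways, with 3 higher and 3 lower. Krt18 changed most, from 4730 ± 127 to 15581 ± 72.0 (log2 fold change 1.72), while the others lay between -0.49 and 0.61. The scale made from the mean log2 level of these genes thus leans on Krt18.

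The upstream sequence of 4 members is shown, for the calcium pair with the largest rises and for the 2 subunits of the B12 receptor. RefSeq windows (GRCm38.p6, the build also called mm10) were found for 9 of the 10 members, and Tcn2 has none. Each line holds the 250 bases before the annotated start, 5′ to 3′ on the gene's strand. The S100g window lies at chrX:162964600-162964849 (minus strand), that of Trpv6 at chr6:41636406-41636655 (minus), that of Cubn at chr2:13491877-13492126 (minus) and that of Amn at chr12:111270846-111271095 (plus). Capitals mark matches, on either strand, to AGGTCA and GGTTCA, which are half-sites of nuclear receptors including the vitamin D receptor, to the caudal homeobox cores TTTATG and TTTATA, and to CAAAGTCCA, a form of the HNF4A site.
S100g: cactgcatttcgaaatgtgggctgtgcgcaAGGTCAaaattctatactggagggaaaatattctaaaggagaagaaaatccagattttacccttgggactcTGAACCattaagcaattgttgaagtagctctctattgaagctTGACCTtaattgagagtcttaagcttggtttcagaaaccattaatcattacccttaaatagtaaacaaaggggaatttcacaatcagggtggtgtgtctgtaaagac
Trpv6: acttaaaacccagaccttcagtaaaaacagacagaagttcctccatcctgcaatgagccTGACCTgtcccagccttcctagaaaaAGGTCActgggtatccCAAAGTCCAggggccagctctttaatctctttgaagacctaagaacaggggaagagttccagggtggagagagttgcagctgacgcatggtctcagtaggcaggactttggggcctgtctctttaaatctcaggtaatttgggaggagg
Cubn: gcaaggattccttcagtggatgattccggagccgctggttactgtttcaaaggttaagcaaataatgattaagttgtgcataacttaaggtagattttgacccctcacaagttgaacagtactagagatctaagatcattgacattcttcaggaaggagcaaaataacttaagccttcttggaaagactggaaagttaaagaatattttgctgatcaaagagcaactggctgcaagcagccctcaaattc
Amn: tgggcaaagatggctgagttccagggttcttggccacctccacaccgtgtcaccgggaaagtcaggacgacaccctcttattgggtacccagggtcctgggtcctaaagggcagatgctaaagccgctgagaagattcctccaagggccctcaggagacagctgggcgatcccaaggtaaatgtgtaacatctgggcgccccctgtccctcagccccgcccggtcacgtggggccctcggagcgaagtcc

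AGGTCA stood in 13.8% of windows and GGTTCA in 8.87%. S100g held 3 half-sites in this window, AGGTCA at -220 to -215 and, on the other strand, GGTTCA at -149 to -144 and AGGTCA at -107 to -102, counted from the annotated start. Trpv6 held 2, both AGGTCA, at -165 to -160 and on the other strand at -191 to -186. It also held CAAAGTCCA at -149 to -141. Over 27025 genes, each with its first listed window, 21.3% held at least 1 half-site, 2.95% at least 2 and 0.381% at least 3, and CAAAGTCCA stood in 0.381%. No match to these 5 motifs, which do not overlap each other here, lies in the printed windows of Cubn and Amn. Only these exact letters were searched. Near variants were not, such as GGGTCA, which the Cubn window holds on the other strand, so the contrast depends on the forms chosen. TTTATG was found in 11.1% of windows and TTTATA in 13.0%. Among the other members, Cd320 held a half-site in each of its 2 windows and Slc19a1 in 1 of 2. These are matches of letters, with no rule for the spacing between half-sites, and were not tested for binding.

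Cubn encodes cubilin, the large peripheral membrane protein that binds the complex of intrinsic factor and B12. The gene lies on chromosome 2 (13276338 to 13491813, minus strand, GENCODE annotation of GRCm38). Its signal was 6962, 6355 and 6601 in the control libraries and 2074, 1822 and 1699 in the knockout libraries. The lowest control library thus stood far above the highest knockout library. The log2 fold change was -1.84 ± 0.06 (limma adjusted p = 1.33e-15), from 6639 ± 305.6 to 1865 ± 191. An annotated antisense gene, Gm13270, overlaps 2.46% of its exon bases, and since no strand setting is stated, reads there cannot be assigned.

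Amn encodes amnionless, the membrane-spanning partner that carries cubilin to the apical surface. Its locus is on chromosome 12 (111271095 to 111276426, plus strand). Its signal was 1918, 1647 and 2043 in control and 892, 739 and 800.3 in knockout. Again all control libraries lay above all knockout libraries, with a log2 fold change of -1.20 ± 0.08 (limma adjusted p = 6.21e-11).

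Both receptor genes were lower than the mean of the enterocyte list as well. Relative to that mean Cubn was at -1.02 (95% interval -1.15 to -0.90) and Amn at -0.39 (-0.56 to -0.23). Among the single markers the lowest was Apoa4 at -1.51. Cubn (-1.84) fell further than each marker, while Amn (-1.20) lay within their range. The ratio of Cubn to Amn, each per kb of annotated exon, was 0.448, 0.476 and 0.399 in control and 0.287, 0.304 and 0.262 in knockout. This ratio is free of library scaling, and its groups did not overlap (exact permutation test, two-sided, p = 0.1, the smallest possible, and 0.1 after Benjamini-Hochberg adjustment over 5 ratios). Cubn stood lower relative to Amn in every knockout library than in any control library.

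Markers of the ileum, where this receptor acts, did not fall together. Of 7 tested ileum markers, 4 were higher and 3 lower, with a summed signal of 9385 to 9482 in control and 9006 to 9867 in knockout. The bile acid binder Fabp6 rose from 7.23, 10.7 and 11.1 in the control libraries to 207, 173 and 172, and the bile acid carrier Slc10a2 from 12.4, 22.4 and 10.1 to 345, 299.5 and 234. The basolateral bile acid exporters Slc51a and Slc51b and the receptor Nr1h4 were lower. The part of segment makeup in the receptor genes' change was not tested. Kidney markers were looked at too, since kidney also uses this receptor. Of 6 listed, 3 were present, Slc34a1, Lrp2 and Nphs1, the last a gene of podocytes and not of the tubule. They summed to at most 27.2 in any library, with 15.1 from Nphs1 in the third control library, and none was tested.

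Tcn2 encodes transcobalamin, the protein that carries B12 from the gut into blood and to tissues. It lies on chromosome 11 (3917192 to 3932159, minus strand). Its signal was 8779, 9296 and 9621 in control and 5220, 5739 and 5687 in knockout (log2 difference -0.73 ± 0.05 by limma, adjusted p = 2.35e-12). The knockout libraries were all lower, yet relative to the enterocyte list the value was 0.08, with an interval of -0.02 to 0.17 that includes 0. Endothelial markers, another possible source, had 4 of 6 higher and 1 lower, and their summed signal was 2482 to 2588 in control and 3236 to 3491 in knockout. Their part was not tested.

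Cd320 encodes the receptor through which cells take in transcobalamin with its B12. Its locus is on chromosome 17 (33843091 to 33849774, plus strand). Its signal was 103, 99.4 and 96.7 in control and 256, 248 and 243 in knockout. The rise was 2.5-fold, with little spread in either group (log2 fold change 1.31 ± 0.14, limma adjusted p = 1.71e-08), and rested on 289 reads in control and 785 in knockout. Relative to Cd320, Tcn2 per kb of exon fell from 123 ± 9.62 to 29.5 ± 2.18, again with groups that did not overlap. Crypt stem and proliferation markers were higher in the same libraries, 11 of 11, with a summed signal of 8986 to 9489 in control and 24212 to 26009 in knockout. B cell markers were lower, 7 of 7 (5328 to 5993 in control, 460.2 to 657 in knockout). The part of either in the level of Cd320 was not tested.

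Slc46a1 encodes the proton-coupled folate carrier, the main route of dietary folate into enterocytes. It lies on chromosome 11 (78465697 to 78472059, plus strand). Its signal was 10298, 10316 and 10391 in control and 5142, 5996 and 6714 in knockout. The control libraries were almost equal while the knockout libraries spread over a wider range, all of them lower (log2 fold change -0.80 ± 0.08, limma adjusted p = 8.9e-06). Relative to the enterocyte list the value was 0.01 (95% interval -0.16 to 0.17), so its fall was about as large as that of the list.

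Slc19a1 encodes the reduced folate carrier, which most cell types use to take folate from blood. Its locus is on chromosome 10 (77032241 to 77061002, plus strand). Its signal was 1498, 1605 and 1526 in control and 927, 1093 and 1066 in knockout (log2 difference -0.59 ± 0.07 by limma, adjusted p = 4.46e-08). The fall was smaller than the mean fall of the enterocyte list, relative to which Slc19a1 stood at 0.22 (0.09 to 0.36). This fall lay within the range of the single markers. Per kb of exon, the ratio of Slc46a1 to Slc19a1 was 10.1 ± 0.37 in control, and in the knockout libraries it was 8.71 ± 0.68.

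**Figure D2:**
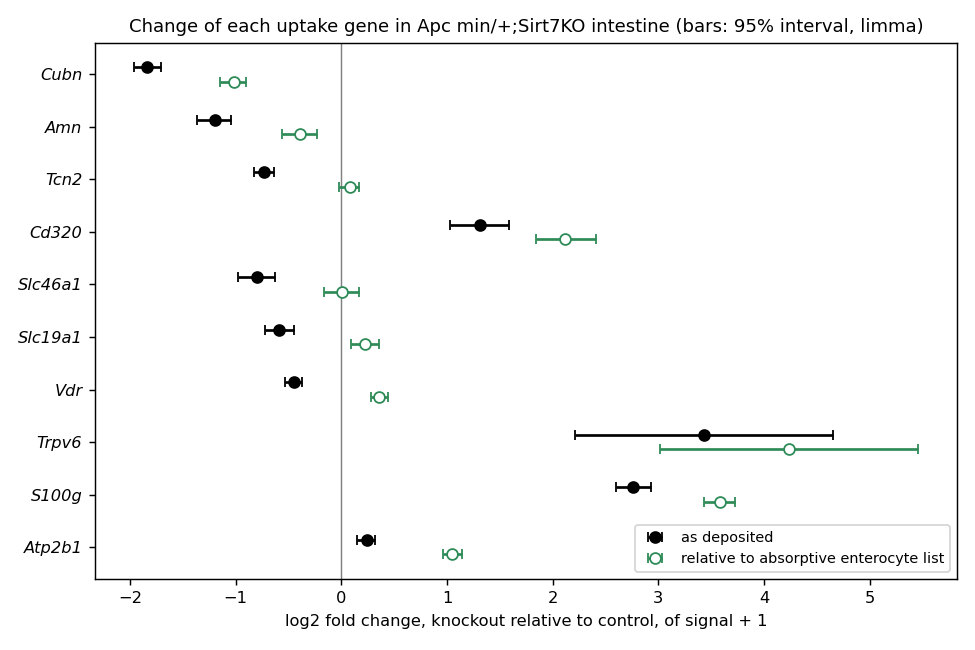
Log2 fold change (knockout relative to control, signal + 1) of each gene with its 95% interval from limma, as deposited (filled) and relative to the mean log2 level of 22 absorptive enterocyte markers (open). Cubn and Amn are below 0 on both scales and Cd320, Trpv6, S100g and Atp2b1 above 0 on both, while Slc19a1 and Vdr change sign and the intervals of Tcn2 and Slc46a1 include 0 on the enterocyte scale, and Atp2b1 is at -0.00026 with scaling to 7 epithelial genes (not drawn).

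The calcium genes did not move as a group. Vdr encodes the vitamin D receptor, a transcription factor that acts as a heterodimer with retinoid X receptors. It lies on chromosome 15 (97854425 to 97910630, minus strand). Its signal was 18978, 19127 and 19157 in control and 13083, 14426 and 14359 in knockout (log2 difference -0.45 ± 0.04 by limma, adjusted p = 8.53e-10). The receptor was lower in every knockout library, though relative to the mean of the enterocyte list it was higher (0.36, 0.28 to 0.44). Its change lay within the range of the single markers.

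S100g encodes calbindin-D9k, the small protein that ferries calcium across the enterocyte. The gene is on chromosome X (162961992 to 162964599, minus strand). Its signal was 1111, 1014 and 1021 in control and 6103, 7645 and 7760 in knockout. All knockout libraries were several times above all control libraries, from 1049 ± 53.9 to 7169 ± 925 (log2 fold change 2.76 ± 0.08, limma adjusted p = 6.54e-13). The S100g signal per kb relative to that of Vdr rose from 0.647 ± 0.037 to 6.03 ± 0.47, a ratio higher in every knockout library than in any control library.

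Trpv6 encodes the apical calcium channel, the entry step of the route. The gene is on chromosome 6 (41620624 to 41636405, minus strand). Its signal was 1.03, 1.07 and 4.03 in control and 16.2, 49.4 and 29.6 in knockout. The gene was near the detection limit, with 6 reads over the 3 control libraries and 98 over the knockout libraries, and the exact 95% counting interval of their ratio, corrected for the size factors, was 6.66 to 41.9. That interval covers counting error of the pooled reads only and leaves out the spread between libraries, with 18, 49 and 31 reads in knockout. PCR copies of a molecule, where counted as reads, would also make it too narrow. The log2 fold change was 3.43 ± 0.59 (limma adjusted p = 2.28e-05). That p-value gives no support of its own, since Trpv6 reached the minimum signal through the knockout libraries alone. The log2 fold change was 3.05 without the second knockout library, which had the most reads, and 3.86 without the third control library. With a pseudocount of 10 it was 1.72, since the size of the change of so low a gene depends on that constant.

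Atp2b1 encodes the plasma membrane calcium pump that exports calcium at the basolateral side. The gene is on chromosome 10 (98914406 to 99026143, plus strand). Its signal was 8222, 8614 and 8021 in control and 9284, 10132 and 9883 in knockout (log2 difference 0.24 ± 0.04 by limma, adjusted p = 3.55e-05). The ranges were separate but close, and the rise was absent when libraries were scaled to the 7 epithelial genes (-0.00026, limma adjusted p = 1.0). That epithelial scale leans on Krt18, which rose by 1.72 on the log2 scale. Per kb of exon, the ratio of S100g to Atp2b1 was 4.02 ± 0.28 in control and 23.2 ± 2.12 in knockout.

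Proximal markers were measured beside the calcium genes, because transcellular calcium uptake is strongest in the duodenum. Of 8, 3 were higher and 4 lower, and their summed signal was 146560 to 160556 in control and 89497 to 101613 in knockout. Most of that sum came from Fabp1 and Lct, which the enterocyte list also holds, while the other 6 summed to 15177 to 15875 in control and 20093 to 24758 in knockout. The iron exporter Slc40a1 rose from 3864 ± 268.6 to 10553 ± 1500.3 and the duodenal iron reductase Cybrd1 from 701 ± 5.72 to 2436 ± 387. Gata4, the transcription factor of proximal intestine, fell from 3791 ± 49.6 to 2932 ± 231, and Pdx1 stood at 827 ± 71.2 and 889 ± 171 without passing. Of 10 tested stomach markers, 8 reached the minimum signal through the knockout libraries alone and so had to be higher, as did Trpv6, and the other 2 were higher too, with a summed signal of 33.2 to 43.4 in control and 22087 to 23591 in knockout, and Lipf and Atp4b were at 0 in all control libraries. Of 10 pancreatic markers, 7 were tested through the knockout libraries alone, and the other 3 were also higher (summed signal 243 to 269 in control, 2597 to 3263 in knockout). The part of these tissues in the calcium genes' change was not tested.

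The first knockout library was the highest or the lowest of its group for all 10 members, and the same holds for 68.5% of tested genes. It was highest for Cubn, Amn and Cd320 and lowest for the other 7. Of the proximal markers, Slc40a1 (8824 against 11515 and 11319), Cybrd1 (1995 against 2593 and 2719), Gata4, Pdx1, Fabp1, Lct and Onecut2 were also lowest there. Slc5a9 was highest there (1890 against 1635 and 1663). Of the ileum markers, Fabp6, Slc10a2, Guca2a and Osr2 were highest there, and Slc51a, Slc51b and Nr1h4 were not. Without this library the log2 fold change was 2.88 for S100g, -0.70 for Slc46a1 and -1.91 for Cubn, so each kept its direction and its call. For Trpv6, whose direction the filter had fixed, it was 3.83.

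Levels of different genes were compared per kb of annotated exon. In control the order from high to low was Tcn2 (4239 ± 195), Vdr (3378 ± 17.0), Slc46a1 (3356 ± 16.0), S100g (2185 ± 112), Amn (1014 ± 110), Atp2b1 (544 ± 19.8), Cubn (445 ± 20.5), Slc19a1 (332 ± 12), Cd320 (34.6 ± 1.14) and Trpv6 (0.519 ± 0.437). Vdr and Slc46a1 were the neighbours whose ranges overlapped. In knockout S100g led with 14935 ± 1928, ahead of Tcn2 (2548 ± 131) and Vdr (2470 ± 134), which overlapped each other. Slc46a1 (1932 ± 256), Atp2b1 (642 ± 28.6), Amn (440 ± 41.9), Slc19a1 (222 ± 19.3), Cubn (125 ± 12.8), Cd320 (86.4 ± 2.19) and Trpv6 (8.06 ± 4.24) followed. Cubn thus went from above Slc19a1 to below it and Amn from above Atp2b1 to below it, and S100g moved to the top.

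**Figure D3:**
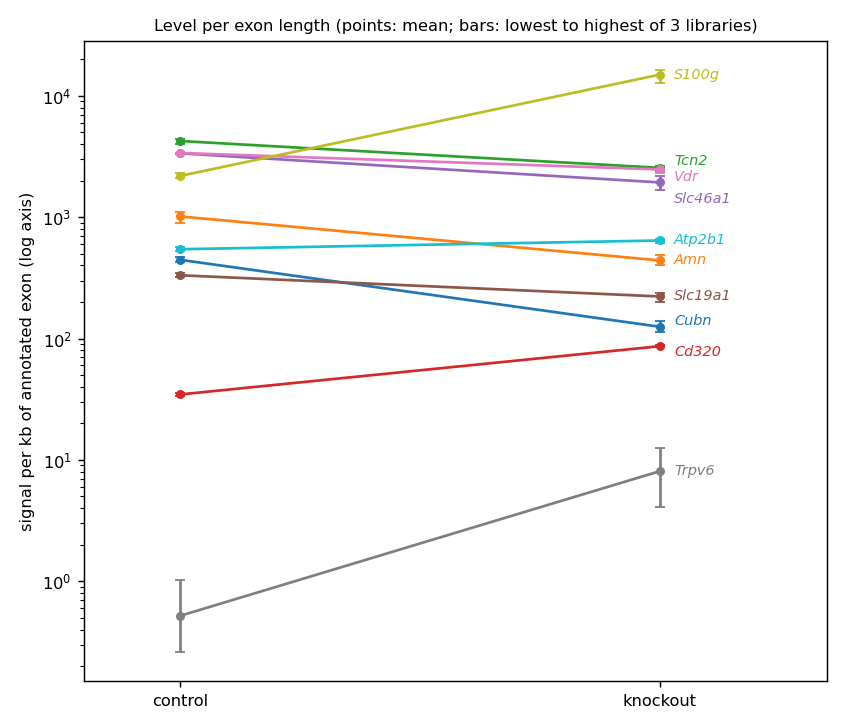
Signal per kb of annotated exon (log axis) of each gene in control and knockout, with points for the mean and bars from the lowest to the highest of 3 libraries. The line of S100g crosses those of Tcn2, Vdr and Slc46a1, that of Cubn crosses Slc19a1, that of Amn crosses Atp2b1, and Trpv6 stays lowest in both groups.

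Other genes of B12 handling went both ways. Of 10 tested, 5 passed as higher, 2 as lower and 3 did not pass, with a median log2 fold change of 0.25, against 0.01 over all tested genes, and relative to the enterocyte list all 10 were higher, where 79.9% of all tested genes were. With scaling to general epithelial genes 4 were higher and 5 lower, against 19.7% and 46.5% of all tested genes. Abcc1, an efflux pump that exports B12 from cells among other substrates, rose from 304 ± 22.0 to 912 ± 56.0 (1.58 ± 0.09, limma adjusted p = 1.74e-13). Lmbrd1, which releases B12 from lysosomes, fell from 2809 ± 106 to 1991 ± 40.6 (-0.50 ± 0.05). Mmachc, which strips the ligand from incoming B12, rose from 117 ± 24.6 to 228 ± 14.4, and Mmab, which makes the mitochondrial coenzyme form, from 281 ± 18.0 to 451 ± 70.9. The methionine synthase gene Mtr and its reductase Mtrr rose by 0.52 and 0.65 on the log2 scale. The gene for intrinsic factor, Gif, which is made in the stomach, had 0.68 ± 0.59 in control and 3.83 ± 4.15 in knockout and was too low to test. Lrp2, the megalin gene that acts with cubilin in kidney, stood at 7.26 ± 1.83 and 4.21 ± 2.47 and was not tested either.

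Among 5 genes that serve cubilin traffic, Lrpap1, a chaperone of the megalin family, rose from 549 ± 60.8 to 856 ± 29.4 (0.64 ± 0.08, limma adjusted p = 3.16e-07). The adaptor subunit gene Ap2a1 passed narrowly as lower (-0.15 ± 0.06, limma adjusted p = 0.049), a call lost without 5 of the 6 libraries in turn. Dab2, Clcn5 and Rab11a did not pass. The median of this list was 0.09. Relative to the enterocyte list all 5 were higher, where 79.9% of all tested genes were. With scaling to general epithelial genes 1 was higher and 3 lower, against 19.7% and 46.5% of all tested genes.

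Folate handling was also split, with 4 of 7 tested genes higher, 2 lower and 1 not passing (median 0.52). Relative to the enterocyte list 5 were higher, where 79.9% of all tested genes were. The count of lower genes was 1 without the first control, the third control or the third knockout library, and also with the minimum signal raised to 50. Ggh, the hydrolase that trims folate polyglutamates, had the largest change, with a signal of 187, 205 and 195 in control and 1665, 1728 and 1508 in knockout (3.05 ± 0.08, limma adjusted p = 8.18e-19). The opposing synthase Fpgs, which adds the polyglutamate tail and so keeps folate in cells, rose from 172 ± 8.55 to 348 ± 19.8. Abcg2, an apical efflux pump with folate among its substrates, fell from 4712 ± 142 to 2589 ± 121. Slc25a32, the mitochondrial folate carrier, rose from 329 ± 64.1 to 571 ± 74.9 (0.80 ± 0.12, limma adjusted p = 1.37e-05). Folr1, a folate receptor that is low in gut, was at 28.8 ± 9.46 and 12.6 ± 9.81 and passed as lower with groups that overlapped.

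Of 14 tested genes of calcium and vitamin D handling 9 were lower, 2 higher and 3 did not pass (median -0.30), though relative to the enterocyte list 11 were higher and 1 lower, a share of higher genes near the 79.9% of all tested genes on that scale. With scaling to general epithelial genes 1 was higher and 11 lower, against 19.7% and 46.5% of all tested genes. Quantile normalization gave 2 higher and 7 lower. The 2 higher genes on the deposited scale were claudins. Cldn2, a cation pore of tight junctions, rose from 1804 ± 83.1 to 9237 ± 246 (2.36 ± 0.05, limma adjusted p = 2.63e-21), and Cldn12 from 1103 ± 105 to 1408 ± 53.1. Cldn15, the other cation pore of small intestine, fell from 23871 ± 601 to 12636 ± 276. The second pump gene Atp2b4 fell by 0.62 on the log2 scale, while Atp2b1 rose on the deposited scale. Cyp27a1, a sterol hydroxylase that can also act on vitamin D, fell from 2326 ± 51.9 to 1737 ± 119.5 (-0.42 ± 0.05, limma adjusted p = 4.55e-07). The heterodimer partner gene Rxra fell from 4650 ± 237 to 3692 ± 76.9. Slc30a10, a manganese exporter that vitamin D induces in gut, stood at 3540 ± 58.2 and 3501 ± 414 and did not pass (-0.02 ± 0.07).

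**Figure D4:**
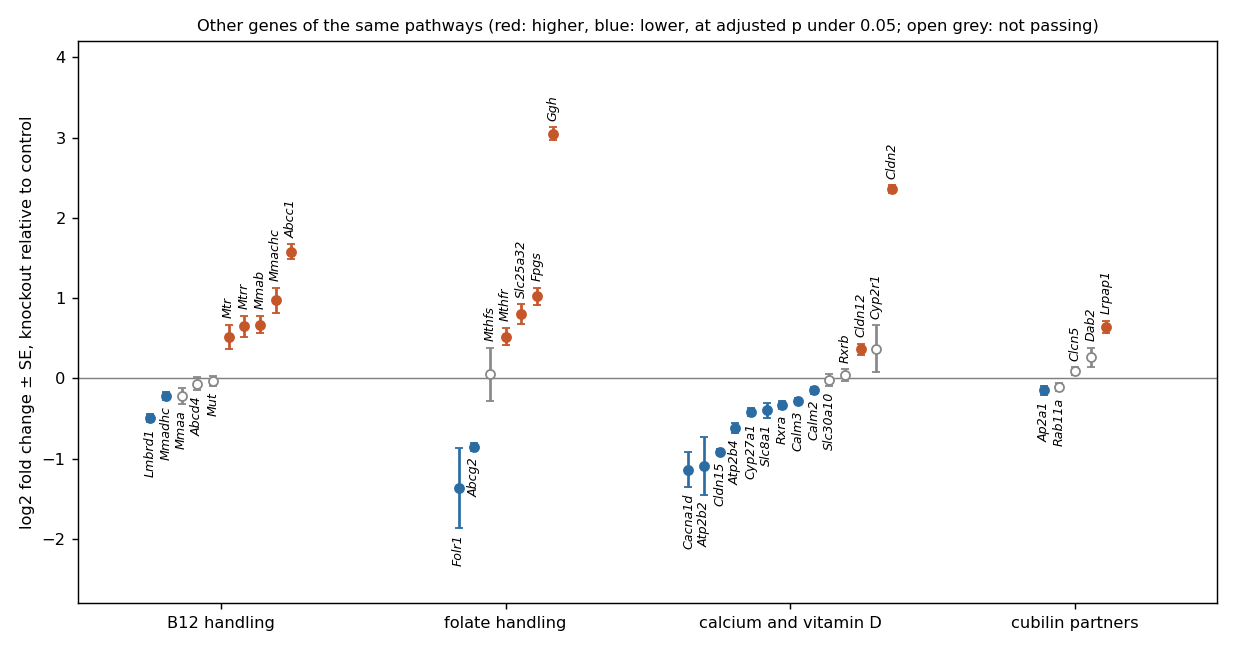
Log2 fold change ± SE (knockout relative to control, signal + 1) of the tested genes of B12 handling, folate handling, calcium and vitamin D, and cubilin partners, red where higher and blue where lower at adjusted p under 0.05. Ggh and Cldn2 stand highest at 3.05 and 2.36, while most calcium and vitamin D genes lie below 0. Relative to the enterocyte list 11 of these 14 would be higher, near the 79.9% of all tested genes on that scale. With scaling to general epithelial genes 1 would be higher and 11 lower, against 19.7% and 46.5% of all tested genes.

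Cubn had the smallest p among the members, and the genes most like it in pattern were sought by Pearson correlation of log2(signal + 1) over the 6 libraries. Among 12399 genes the closest 3 were a gene model listed under a sequence accession in place of a symbol (r = 0.9998, log2 fold change -1.95), Sel1l of endoplasmic reticulum quality control (0.9995) and the chloride channel accessory gene Clca4b (0.9994). With the 2 genotypes far apart, 1092 genes had an r over 0.98, so the points mostly share the genotype split. Sel1l fell from 6347 ± 88.5 to 4482 ± 105 and Clca4b from 82464 ± 1174 to 58021 ± 1829, both by a smaller factor than Cubn.

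The authors' deposited table lists log2 fold changes of -1.82 for Cubn, -1.19 for Amn, 1.28 for Cd320 and 2.75 for S100g. For Trpv6 the authors' deposited table lists 2.32 with an SE of 0.42, lower than the 3.43 from limma. On recovered reads DESeq2 gave 3.94 with an SE of 0.78 and edgeR gave 3.86, both higher than limma. For the other 5 members the authors' deposited table lists -0.73 (Tcn2), -0.78 (Slc46a1), -0.58 (Slc19a1), -0.45 (Vdr) and 0.24 (Atp2b1).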

How the data were processed

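Intestinal RNA of 6 mouse samples, 3 per genotype, was extracted with Trizol and made into libraries with an Illumina TruSeq kit, per the labels' protocols. In the submitters' processing notes the tools named are HTSeq 0.6.1p1, TopHat2 2.1.1, TopHat, DESeq2 and FastQC, with mm10 as genome build and no roles or strand setting. The authors' deposited table holds 1 signal value per gene and library, reads per gene after division by each library's size factor, and the authors' mean signal. Per the file headers, it also holds the authors' log2 fold change with its SE, a Wald statistic (a score), and p-values, unadjusted and adjusted. In every library 100% of values came out as whole reads (tolerance 0.01), and these recovered reads numbered 24987313 to 29603348 per library. In the third control and second knockout libraries the size factor lies close to 1. In 23 rows a date stands in place of a gene name.

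Genes with a signal of at least 10 in at least 3 libraries (16600) were fitted with limma 3.58.1 (trend and robust, R 4.3.3) on log2(signal + 1), genotype as the sole term. The step was tested on simulated data in which far fewer genes changed than here, balanced between higher and lower. Its behaviour with as many changes as here was not tested. On recovered reads edgeR 4.0.16 (quasi-likelihood) called 10374 genes and DESeq2 1.42.0 called 9906. Exon lengths and positions are from GENCODE M21 and promoter windows from RefSeq, both GRCm38. Same-group libraries, 6 pairs, had a mean chi-square per gene of 3.79 to 6.94, above counting noise. The members, lists and motifs were chosen with earlier results of these data known. All members are described. Up to 4 passing genes of each pathway list were named by smallest p, and further list genes were added after their values were seen. Of the pathway lists, 2 genes are not reported here and are left out of the list counts.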

Additional observations from a re-analysis of the deposited data

How the results depend on the processing

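The 9 members other than Trpv6 kept their direction and stayed past the threshold in most settings. These were TMM scaling, quantile normalization, the replicate block, each library left out in turn, no filter, the filter at 50, pseudocounts of 0.5 and 10, edgeR and DESeq2. Trpv6 has no value with the filter at 50. It did the same in the others, but reached the minimum signal through the knockout libraries alone, so its calls are not counted as support. Scaling to 7 epithelial genes moved the median of all genes to -0.23, turned Atp2b1 to -0.00026 (limma adjusted p = 1.0) and gave 3276 genes higher and 7714 lower, where the deposited scale gave 5248 and 5133. The epithelial scale leans on Krt18, with a log2 fold change of 1.72. Scaling to the absorptive enterocyte list, chosen after seeing the data, moved the median of all genes to 0.82 by construction, with 13268 genes higher and 880 lower. On that scale Tcn2 (0.08), Slc46a1 (0.01), Slc19a1 (0.22), Vdr (0.36), Lmbrd1 (0.32), Cyp27a1 (0.39), Atp2b4 (0.19) and Ap2a1 (0.67) moved above 0, Tcn2 and Slc46a1 without passing, and 2 members passed as lower in place of 6. Quantile normalization gave Vdr -0.12, Atp2b1 0.51, Tcn2 -0.48 and Slc46a1 -0.54, and the cause was not tested. Over the libraries left out in turn, S100g ranged from 2.70 to 2.88, Cubn from -1.91 to -1.77 and Trpv6 from 3.05 to 3.86. Same-numbered libraries had correlations of 0.0057 to 0.035 in their deviations from the group means, and the other pairs -0.038 to 0.0055. Values this small do not settle whether the replicate numbers pair the libraries. With the replicate block 10402 genes passed, against 10381 without it. Depth limits Trpv6 most among the members, with 6 reads in control.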
